A study of Homo sapiens with 6 samples.

Results

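The replication-dependent histone genes are the H1, H2A, H2B, H3 and H4 genes that supply histone protein for newly copied DNA. Probe sets were taken whose sole gene symbol was H1-1 to H1-6, or began with H2AC, H2BC, H3C or H4C followed by a number. These genes were formerly named with the prefixes HIST1H to HIST4H. The rule gave 56 of the 18377 genes measured, each with 1 probe set: 6 of class H1, 14 of H2A, 17 of H2B, 8 of H3 and 11 of H4. Of these, 55 are annotated as protein coding and H2BC19P as a pseudogene. On the annotation, 49 lie on chromosome 6, 6 on chromosome 1 and 1, H4C16, on chromosome 12. The mean value was above the dim level, the 40th percentile of all probe sets (4.76), for 46 members and at or below it for the other 10. No member was left out for low signal.

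The cells were MCF10A-HER2/3, made from the human mammary epithelial line MCF10A. All 3 groups carried a lentiviral, doxycycline-inducible miR construct, were grown for 15 days in three-dimensional culture with EGF, insulin, cholera toxin, hydrocortisone and horse serum, and received doxycycline from the day after seeding. They differed in the construct, which was SHP2 miR1, SHP2 miR2 or, in the controls, CTRL miR, with 2 arrays each. SHP2 is a tyrosine phosphatase that acts below growth factor receptors and is encoded by PTPN11. The comparisons ask which histone transcripts differ when SHP2 is reduced. No group without doxycycline or without a construct was measured, so effects shared by all 3 groups cannot be seen.

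As background, H2A, H2B, H3 and H4 form the protein core around which DNA is wound, and H1 binds the DNA between cores. H2A, H2B, H3 and H4 are each encoded by many near-identical genes, mostly without introns, which lie in clusters. Transcripts of the replication-dependent genes rise in S phase, when DNA is copied, and are degraded when copying ends. They end in a stem-loop that binds SLBP, where other mRNAs carry a poly(A) tail. The factor NPAT, a substrate of cyclin E and CDK2, gathers at the clusters and promotes their transcription. A few members are also known to give polyadenylated transcripts in cells that have stopped dividing.

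Promoter sequence shows what the members have in common beyond their proteins. In the RefSeq promoter table of GRCh38.p14, 50 of the 56 members had an entry, and the 250 bases before each annotated start were searched on both strands. The CCAAT box was in 88% of member promoters (44 of 50), against 33% of all 27305 promoters. TATAAA was in 68% (34 of 50), against 11.1% of all promoters. The octamer ATTTGCAT was found in 76.9% of H2A promoters (10 of 13) and 81.2% of H2B promoters (13 of 16), in none of the 6 H1, 6 H3 and 9 H4 promoters, and in 1.66% of all promoters. AAACACA, known as the H1 box, was in all 6 H1 promoters, in no other member's and in 4.95% of all promoters. CCAAT was in every searched H1, H2A, H2B and H3 promoter but in 33.3% of H4 promoters (3 of 9). Many H2A and H2B genes lie head to head, so that a motif between them is counted for both. These matches are descriptions of letters in a window, not of binding.

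The 140 bases before the start are shown for the called member of smallest p in each class, and for H2AC6, the only member called lower, with SHP2 miR1. They were read from chr6:27867589-27867728 (minus strand), chr6:27132903-27133042 (plus strand), chr6:26251474-26251613 (plus strand), chr6:27809911-27810050 (plus strand), chr6:26189113-26189252 (minus strand) and chr6:26124032-26124171 (plus strand). Each is written 5′ to 3′ on the gene's own strand. Capitals mark the CCAAT box, the TATA letters, the octamer and the H1 box, each as searched or as its reverse complement. The TATA letters match on both strands, in overlap, in H2AC11.
H1-5: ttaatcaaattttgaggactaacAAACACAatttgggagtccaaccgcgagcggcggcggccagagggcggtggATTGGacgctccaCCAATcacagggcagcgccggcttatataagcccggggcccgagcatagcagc
H2AC11: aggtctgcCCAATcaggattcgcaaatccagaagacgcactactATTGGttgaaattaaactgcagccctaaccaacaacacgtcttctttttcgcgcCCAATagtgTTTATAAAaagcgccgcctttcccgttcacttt
H2BC9: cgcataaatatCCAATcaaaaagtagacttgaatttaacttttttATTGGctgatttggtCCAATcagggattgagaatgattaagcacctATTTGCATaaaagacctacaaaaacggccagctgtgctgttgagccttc
H3C10: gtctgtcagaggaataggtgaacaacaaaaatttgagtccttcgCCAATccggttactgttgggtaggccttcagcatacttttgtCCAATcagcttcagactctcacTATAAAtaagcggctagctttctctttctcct
H4C4: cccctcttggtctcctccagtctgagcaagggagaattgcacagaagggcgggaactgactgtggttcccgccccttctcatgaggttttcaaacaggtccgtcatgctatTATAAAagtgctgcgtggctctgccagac
H2AC6: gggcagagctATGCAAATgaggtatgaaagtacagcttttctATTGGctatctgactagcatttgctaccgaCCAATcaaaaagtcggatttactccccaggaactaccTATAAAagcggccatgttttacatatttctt
The H1 box began 117 bases before the start in H1-5, and the octamer began 49 bases before it in H2BC9 and 130 bases before it in H2AC6. The TATA letters, read forward, began 29 bases before the start in H4C4 and 31 or 32 bases before it in H2AC11, H3C10 and H2AC6. In the stretch shown, H4C4 had neither the CCAAT box nor the octamer. The CCAAT box, the TATA letters and the octamer were all present in H2AC6, the member that fell. In the longer stretch searched, all of these were also present in H2AC11 and H2AC21, which rose. The combination was thus not particular to H2AC6.

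**Figure D1:**
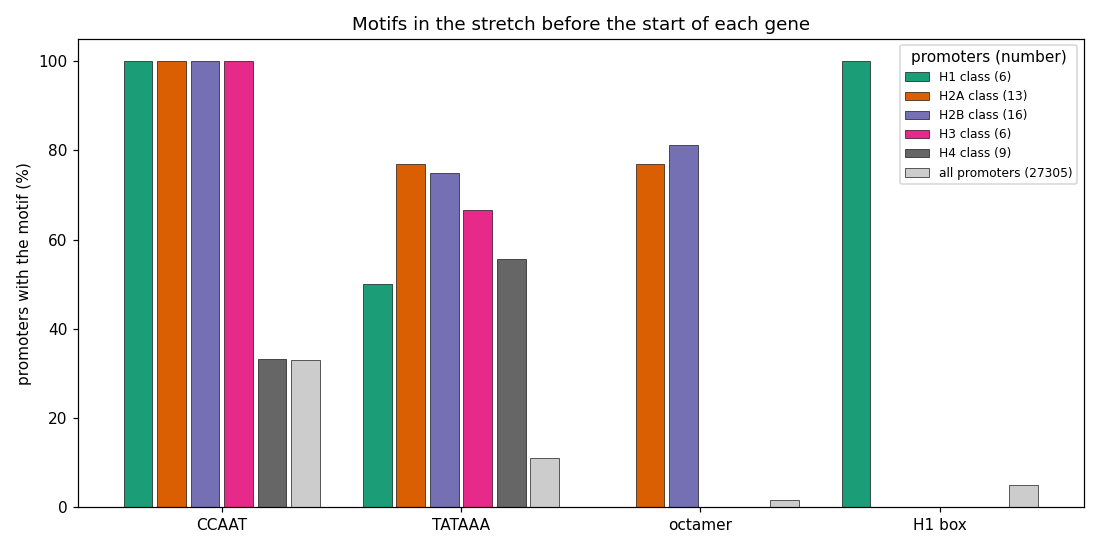
Percentage of promoters (vertical axis) that held each searched motif (horizontal axis) in the 250 bases before the RefSeq start, with bars for the histone classes and for all 27305 promoters. The octamer appears in the H2A and H2B bars (76.9% and 81.2%) and the H1 box in the H1 bars (6 of 6).

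PTPN11 was read first as a check of the labels. Its log2 value was 6.04 and 5.71 on the SHP2 miR1 arrays and 6.90 and 7.28 on the SHP2 miR2 arrays, against 7.96 and 8.44 on the control arrays. All 4 SHP2 miR arrays lay below both controls. The average over both SHP2 miRs was 1.72 log2 units below control (SE 0.19, adjusted p = 0.00184, limma). With SHP2 miR1 it fell by 2.32, and with SHP2 miR2 the difference of -1.11 did not pass (adjusted p = 0.0813). All values here are the authors' deposited log2 values, and array medians lay between 5.23 and 5.35. All tests are limma's two-sided moderated test over the 18377 genes, with p-values adjusted by the Benjamini-Hochberg method and a threshold of 0.05. The labels do not say whether the 2 arrays of a group stem from separate cultures, and a p-value here then covers only array-to-array spread, which may be technical. Arrays measure bulk RNA, in which fewer cells of a type and less RNA per cell cannot be told apart.

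KRT18, the brightest of 6 luminal markers, was read against the label of mammary epithelium. Its value was 10.93 to 11.04 on the SHP2 miR arrays and 10.69 and 10.74 on the control arrays. The median of the 6 luminal markers lay between 5.86 and 6.38 on the arrays, with 1 of 6 dim. Among 4 measured basal markers KRT14 rose by 1.10 (adjusted p = 0.00440) and LAMB3 fell by 1.07 (adjusted p = 0.00314). On average none of 6 luminal markers passed, with 0 at an unadjusted p below 0.05, though all 6 differences were positive. With SHP2 miR1, 2 luminal markers were higher at that level. The summed luminal level (log2 of summed linear values) was 11.88 to 11.98 on SHP2 miR arrays against 11.69 to 11.71 on control arrays, and the basal sum was 12.52 to 12.81 against 12.60 to 12.61. The fibroblast sum was 8.66 to 8.92 on SHP2 miR arrays against 8.76 to 8.77 on control arrays, with 2 of 6 markers dim, LUM among them. On average 0 fibroblast markers were called or at an unadjusted p below 0.05, and with SHP2 miR1 1 was higher at that level. The leukocyte sum was 8.11 to 8.68 against 8.23 on both control arrays, with 2 of 6 dim, PTPRC among them, and 1 marker, CSF1R, lower by 0.75 (adjusted p = 0.0463). The other 5 leukocyte differences were positive, and CD14 was highest among them, with 0.96 on average (adjusted p = 0.0505) and a rise of 1.08 with SHP2 miR1 (adjusted p = 0.0366). The endothelial sum was 7.28 to 7.54 against 7.62 on both control arrays, with 4 of 6 dim, CDH5 and VWF among them. TEK fell by 1.38 (adjusted p = 0.000867), and the other 5 endothelial differences were positive. Of these, 3 were higher at an unadjusted p below 0.05, and PECAM1 passed with a rise of 0.60 (adjusted p = 0.0422). The part of these marker changes in the histone values was not tested.

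Averaged over both SHP2 miRs, 10 of the 56 members were higher than in control, a share of 17.9%, and 0 were lower. Of all genes 1.53% were called higher and 2.67% lower. At an unadjusted p below 0.05, 20 members (35.7%) were higher and 2 (3.57%) lower, beside 8.31% and 12.6% of all genes. The difference was above 0 in 50 members, with a median of 0.29 log2 units (range -0.48 to 0.91), against a median of 0.02 over all genes. In 23 members (41.1%) all 4 SHP2 miR arrays lay above both controls, as they did in 12.6% of all genes. In 0 members all 4 lay below both controls, against 13.6% of all genes. The 10 called members were H1-3, H1-5, H2AC11, H2AC21, H2BC9, H3C2, H3C7, H3C10, H3C11 and H4C4, with folds from 1.48 to 1.88, and in all 10 the groups did not overlap. The number called drops to none without either control array, with 1 control array then left, while the median of the members is 0.30 in each fit. After adjustment 0.299% and 0.283% of all genes are called higher in those fits. It falls to 3 without SHP2 miR2 replicate 1 and to 5 without any other SHP2 miR array.

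Member genes are short. Their median span was 488 bases, against 24462 over all genes, and 53 of 56 spanned under 3000 bases. Of the 1995 genes under that limit, 43 were higher and the median difference was 0.12. With a trend over gene span removed, an alternative chosen after seeing the data, the median of the members was 0.17 and 5 were called: H2AC11, H2BC9, H3C7, H3C10 and H4C4. These same 5 were called when all probe sets were tested in place of 1 per gene. Of all genes 1.48% were higher with the span trend removed and 0.947% with all probe sets tested.

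**Figure D2:**
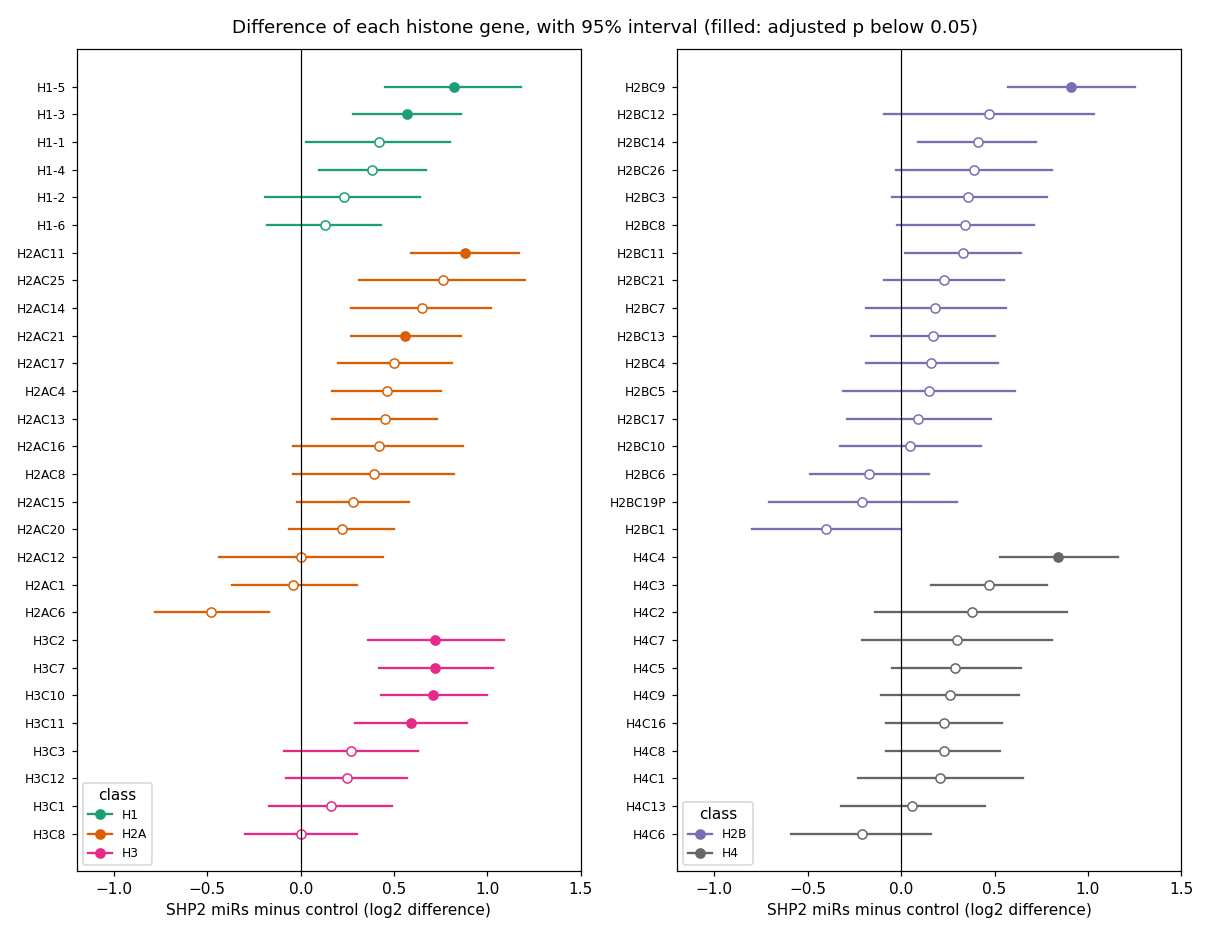
Average difference between SHP2 miR and control arrays (horizontal axis, log2 units) for all 56 members (rows, coloured by class), with 95% confidence intervals. Filled points mark the 10 members past the threshold, all to the right of 0, and 6 members lie left of 0, with H2AC6 lowest at -0.48.

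The H1 genes encode linker histones. H1-5 was at 7.80 and 7.53 with SHP2 miR1, 7.80 and 7.44 with SHP2 miR2, against 6.70 and 6.95 in control. Its average difference was 0.82 (SE 0.16, 1.76-fold, adjusted p = 0.0252). H1-3 was at 5.70 and 5.56 with SHP2 miR1, 5.70 and 5.57 with SHP2 miR2, against 5.07 and 5.05 in control. In both genes every SHP2 miR array lay above the controls. H1-3 rose by 0.57 (SE 0.13, adjusted p = 0.0433), a call that was lost whenever any 1 array was left out. H1-4, with an average difference of 0.38, also had no overlap between groups but did not pass (adjusted p = 0.134). H1-1 and H1-2 had differences of 0.42 and 0.23 and did not pass. H1-6, the testis form, was dim, with a difference of 0.13. All 6 differences of the class were positive, with a median of 0.40.

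Of the 14 H2A genes 2 (14.3%) were higher on average, beside 1.53% of all genes. In the class 12 differences were positive and the median was 0.43. H2AC11 was at 6.74 and 6.74 with SHP2 miR1, 6.51 and 6.35 with SHP2 miR2, against 5.69 and 5.72 in control. The groups were far apart relative to the replicates. It rose by 0.88 on average (SE 0.13, 1.84-fold, adjusted p = 0.00643), the smallest p of the members. H2AC21, on chromosome 1, was at 9.98 and 9.83 with SHP2 miR1, 9.66 and 9.56 with SHP2 miR2, against 9.27 and 9.12 in control. It rose by 0.56 (SE 0.13, adjusted p = 0.0491), close to the threshold, and missed it with any 1 array left out. H2AC25, also on chromosome 1, had the next largest difference of the class. Its values were 7.48 and 7.38 with SHP2 miR1, 7.44 and 6.94 with SHP2 miR2, against 6.27 and 6.84 in control. The lower SHP2 miR2 array and the higher control array lay near each other, and the difference of 0.76 (SE 0.20) did not pass (adjusted p = 0.0685). Leaving out control replicate 1 gave 0.48, and leaving out control replicate 2 gave 1.04. In 9 of 14 H2A genes (64.3%) all SHP2 miR arrays lay above both controls, beside 12.6% of all genes.

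H2AC6 went the other way. It was at 6.34 and 6.36 with SHP2 miR1, 6.83 and 7.08 with SHP2 miR2, against 7.08 and 7.17 in control. The SHP2 miR1 arrays lay below all others, while the higher SHP2 miR2 array met the lower control. It fell by 0.78 with SHP2 miR1 (SE 0.16, adjusted p = 0.0193), and its average difference of -0.48 did not pass (adjusted p = 0.0897). That fall was not called without either control array or without either SHP2 miR1 array. The testis form H2AC1 and H2AC12 were dim, with average differences of -0.04 and 0.00.

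H2B was the largest class, and 1 of its 17 genes (5.88%) was higher on average, H2BC9, beside 1.53% of all genes. H2BC9 was at 7.05 and 7.44 with SHP2 miR1, 7.11 and 7.33 with SHP2 miR2, against 6.34 and 6.31 in control. Its rise of 0.91 (SE 0.15, 1.88-fold, adjusted p = 0.0127) was the largest of all members. H2BC12 followed in the class, at 8.32 and 7.49 with SHP2 miR1, 8.21 and 8.29 with SHP2 miR2, against 7.94 and 7.27 in control. Its replicates were far apart, and the difference of 0.47 (SE 0.25) did not pass (adjusted p = 0.315). Leaving out control replicate 1 gave 0.81, and leaving out control replicate 2 gave 0.13. The class median was 0.18, with 14 positive differences, and all SHP2 miR arrays lay above both controls in 2 genes, H2BC9 and H2BC11, a share of 11.8%, near the 12.6% of all genes. The negative H2B differences were 3: the testis form H2BC1 (-0.40), the pseudogene H2BC19P (-0.21) and H2BC6 (-0.17), and none of these passed.

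Of the 8 H3 genes 4 (50%) were higher on average, beside 1.53% of all genes, and the class median was 0.43. H3C7 was at 7.23 and 7.40 with SHP2 miR1, 7.34 and 7.36 with SHP2 miR2, against 6.72 and 6.50 in control. H3C2 was at 6.60 and 6.93 with SHP2 miR1, 6.85 and 6.94 with SHP2 miR2, against 6.30 and 5.91 in control. Both kept every SHP2 miR array above the controls. H3C7 and H3C2 rose by the same 0.72, with adjusted p = 0.0209 for H3C7 and, with a wider spread, 0.0415 for H3C2. H3C10 was at 6.33 and 6.18 with SHP2 miR1, 6.29 and 6.25 with SHP2 miR2, against 5.51 and 5.59 in control. Its 4 SHP2 miR arrays lay close together, and it rose by 0.71 (SE 0.13, adjusted p = 0.0170). H3C11 was at 9.92 and 9.77 with SHP2 miR1, 9.71 and 9.60 with SHP2 miR2, against 9.26 and 9.06 in control. It rose by 0.59 (SE 0.13, adjusted p = 0.0447), and lost the call with any 1 array left out. The other 4 H3 genes had differences of 0.00 (H3C8), 0.16 (H3C1), 0.25 (H3C12) and 0.27 (H3C3), none of which passed.

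Among 11 H4 genes, whose proteins are identical across most copies, 1 (9.09%) was higher on average, beside 1.53% of all genes. H4C4 was at 6.73 and 6.97 with SHP2 miR1, 6.79 and 6.59 with SHP2 miR2, against 5.99 and 5.86 in control. All 4 SHP2 miR arrays were above both controls, and it rose by 0.84 (SE 0.14, adjusted p = 0.0126). H4C3 was at 7.83 and 7.54 with SHP2 miR1, 7.36 and 7.41 with SHP2 miR2, against 7.04 and 7.09 in control. The groups did not overlap, but its average difference of 0.47 (SE 0.14) did not pass (adjusted p = 0.0974). The class median was 0.26, with 10 positive differences, and 4 of its members were dim: H4C6, H4C7, H4C9 and H4C16. H2AC11, H2BC9 and H4C4 lost the average call only without 1 or the other control array. No test was made between classes, since members of a class share sequence and arrays.

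**Figure D3:**
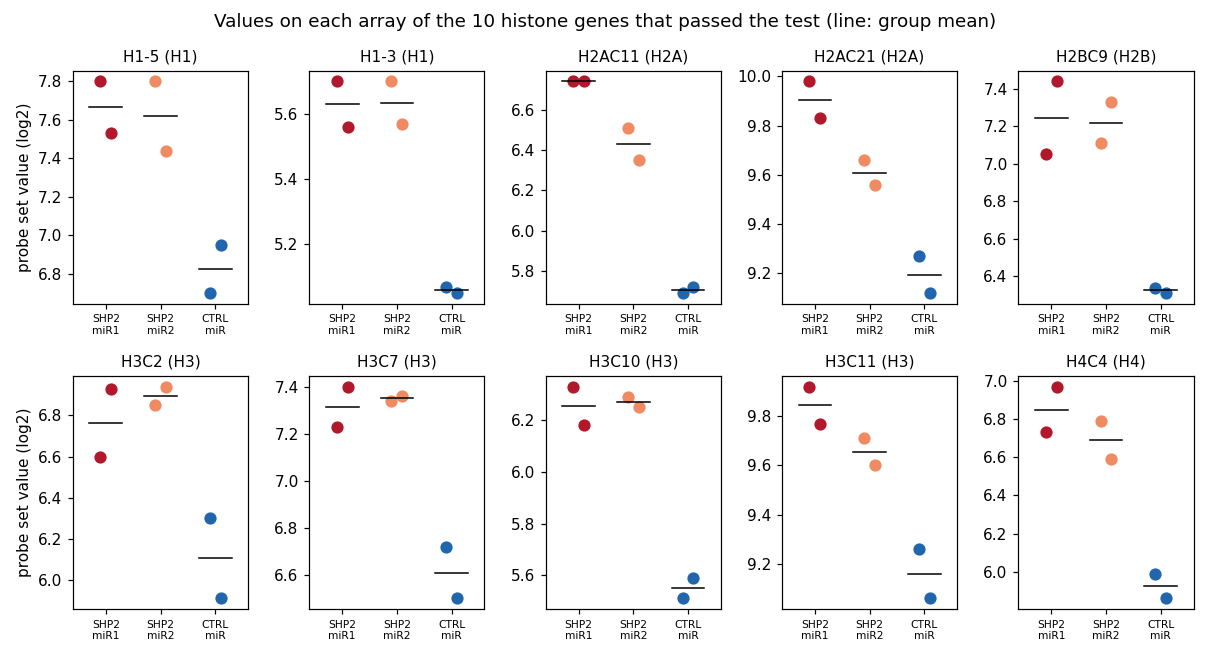
Log2 values on every array for the 10 members past the threshold on average, 1 panel each with its own vertical range, a line at each group mean, and SHP2 miR1 and SHP2 miR2 arrays left of the control arrays. In each panel the 4 SHP2 miR points lie above both control points.

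Both SHP2 miRs were compared with the same 2 control arrays, so their differences share that error and are set side by side. With SHP2 miR1, 15 members were higher (26.8%) and 1, H2AC6, was lower. Of all genes 2.66% were higher and 5.94% lower with SHP2 miR1. The median of the members was 0.34, against 0.04 over all genes. Of the 10 members called on average 9 were among these 15. The exception was H3C2, whose difference with SHP2 miR1 was 0.66 (adjusted p = 0.0616). The other 6 were H2AC13, H2AC14, H2AC17, H2AC25, H2BC14 and H4C3. Fewer members, and fewer of all genes, were called when any 1 control or SHP2 miR1 array was left out. The median of the members was then 0.31 to 0.37. The count was 5 with all probe sets tested and 3 with the span trend removed, beside 1.46% and 2.56% of all genes in those fits. H2AC11, which rose by 1.04 (SE 0.15, adjusted p = 0.00447), kept its call with SHP2 miR1 whichever array was left out.

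With SHP2 miR2, 0 members passed in either direction, beside 0.190% of all genes higher and 0.180% lower. At an unadjusted p below 0.05, 18 members (32.1%) were higher and 0 lower, beside 5.14% and 5.88% of all genes. The median was 0.32, against -0.01 over all genes. The smallest adjusted p was 0.0817, for H2BC9, whose difference was 0.90 (95% interval 0.50 to 1.29). The 10 members called on average had SHP2 miR2 differences from 0.42 to 0.90, all positive. With a mean-variance trend in the fit 10 members were higher with SHP2 miR2, beside 1.03% of all genes in that fit. With dim genes left out 3 were higher, beside 0.628% of the genes then tested. Relative to the mean of the controls, the median member was 0.37 and 0.34 higher on the SHP2 miR1 arrays, 0.39 and 0.21 higher on the SHP2 miR2 arrays, and at -0.01 and 0.01 on the controls.

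Among the members called with SHP2 miR1 alone, H2AC14 was at 6.51 and 6.36 with SHP2 miR1, 6.32 and 6.04 with SHP2 miR2, against 5.88 and 5.44 in control. Every SHP2 miR array was above both controls. It rose by 0.77 with SHP2 miR1 (adjusted p = 0.0406), beside 0.52 with SHP2 miR2. H2AC13 was at 5.50 and 5.61 with SHP2 miR1, 5.28 and 5.33 with SHP2 miR2, against 5.02 and 4.95 in control. It rose by 0.57 with SHP2 miR1 (adjusted p = 0.0436), beside 0.32 with SHP2 miR2. The SHP2 miR2 arrays thus lay between the other groups. The same order held for the dim gene H2AC17, which was at 4.86 and 4.65 with SHP2 miR1, 4.34 and 4.54 with SHP2 miR2, against 4.04 and 4.15 in control. It rose by 0.66 with SHP2 miR1 (adjusted p = 0.0359). H2AC25 rose by 0.88 (adjusted p = 0.0467) and H4C3 by 0.62 (adjusted p = 0.0443) with SHP2 miR1, beside 0.64 and 0.32 with SHP2 miR2. H2BC14 was at 7.34 and 7.36 with SHP2 miR1, 6.63 and 6.82 with SHP2 miR2, against 6.50 and 6.76 in control. Only its SHP2 miR1 arrays stood apart, and it rose by 0.72 with SHP2 miR1 (adjusted p = 0.0296), beside 0.10 with SHP2 miR2.

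The difference between the SHP2 miRs was itself tested, and 0 members passed, beside 0.152% of all genes higher and 0.0381% lower with SHP2 miR2. At an unadjusted p below 0.05, 4 members were higher and 6 lower with SHP2 miR2, shares of 7.14% and 10.7%, beside 8.72% and 8.94% of all genes. The median of the members was -0.12. H2BC14 was 0.62 lower with SHP2 miR2 than with SHP2 miR1 (95% interval of the difference -0.99 to -0.26, adjusted p = 0.132). H2AC6 was 0.61 higher (0.26 to 0.96, adjusted p = 0.131). The smallest adjusted p was 0.126, for the dim chromosome 12 gene H4C16. It was at 4.65 and 4.87 with SHP2 miR2 against 4.03 and 4.19 with SHP2 miR1, and at 4.29 and 4.12 in control. A miss of the threshold does not show that the SHP2 miRs act alike on these genes.

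A set of 6 members is known to give polyadenylated transcripts outside S phase: H1-2, H2AC6, H2BC4, H2BC5, H2BC12 and H2BC21. On average 0 of the 6 passed, with 1 lower at an unadjusted p below 0.05, and their median was 0.20. With SHP2 miR1 1 was lower, H2AC6, beside 5.94% of all genes, and the median was 0.04. With SHP2 miR2 the median was 0.40, 0 passed and 2 were higher at an unadjusted p below 0.05. At that level 32.1% of all members and 5.14% of all genes were higher with SHP2 miR2. All 6 were higher with SHP2 miR2 than with SHP2 miR1, by a median of 0.42. Of them 3 had an unadjusted p below 0.05, with 0 past the threshold. Of all genes 50% were higher in that comparison, and 8.72% were higher at an unadjusted p below 0.05. H2BC21, for example, was at 8.10 and 7.83 with SHP2 miR2 against 7.40 and 7.56 with SHP2 miR1, and at 7.56 and 7.42 in control. The 3 testis forms were dim on these arrays, with a median of -0.04, 0 called and 1 lower at an unadjusted p below 0.05.

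Because copies of a histone gene are nearly identical, probes for 1 gene can bind transcripts of another, and a value given under 1 symbol may include its copies. A further 20 histone probe sets carried several symbols and were not members. Of these 18 held distinct values, since 2 pairs of probe sets were identical. Fitted with all probe sets, 17 of the 18 had a positive average difference, with a median of 0.36, and 13 had all SHP2 miR arrays above both controls, against 13.0% of all probe sets. Of them 1 was called higher, for H3C10 and H2AC13, by 0.81 (SE 0.15, adjusted p = 0.0413), and 0 lower, beside 0.762% of all probe sets higher. The 4 probe sets for H3C13, H3C14 and H3C15 had average differences from 0.47 to 0.62 and did not pass. With SHP2 miR1 3 of the 18 were called higher, beside 1.27% of all probe sets: that for H3C10 and H2AC13 (adjusted p = 0.0298) and 2 of those for H3C13 to H3C15 (adjusted p = 0.0460 and 0.0399). The identical pair for H4C14 and H4C15 had an average difference of 0.62 (adjusted p = 0.0945), and that for H2AC18 to H2AC21 had 0.51 (adjusted p = 0.0930).

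Among the 50 members with a promoter entry, 10 pairs have starts that lie head to head within 1000 bases of each other. Of these 9 join an H2A with an H2B gene, 215 to 248 bases apart, and 1 joins H2BC9 with H3C7, 979 bases apart. Both H2BC9 and H3C7 rose, by 0.91 and 0.72. In H2AC11 and H2BC11 the differences were 0.88 and 0.33, and only H2AC11 passed. In H2AC6 and H2BC4 they were -0.48 and 0.16, of opposite sign, and neither passed on average. With sign kept, the H2A gene had the higher average difference in 7 of the 9 pairs, which was not tested. Among these was the dim pair H2AC1 and H2BC1, where both were negative (-0.04 and -0.40). H2AC12, which lies beside H2BC12, had no promoter entry, so these genes could not be counted as a pair. Their average differences were 0.00 (H2AC12) and 0.47 (H2BC12). In H2AC20 and H2BC21 the average differences were 0.22 and 0.23, but SHP2 miR1 gave 0.29 and -0.01, whereas SHP2 miR2 gave 0.15 and 0.48.

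The histone variants, which are made outside S phase as well, were set beside the members. Of 12 listed, 9 were measured, 0 were higher and 1 was lower on average, with a median of -0.02. Of all genes 1.53% were called higher and 2.67% lower. At an unadjusted p below 0.05, 0 variants were higher and 2 lower, beside 8.31% and 12.6% of all genes. In 3 variants all SHP2 miR arrays lay below both controls and in 0 above both, beside 13.6% and 12.6% of all genes. H3-3B, which encodes the variant H3.3, was at 8.29 and 8.14 with SHP2 miR1, 8.27 and 8.25 with SHP2 miR2, against 8.91 and 9.00 in control. All SHP2 miR arrays lay below both controls, and it fell by 0.71 (SE 0.13, adjusted p = 0.0169).

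Of 19 measured genes for the processing, translation and decay of histone mRNA, 0 passed in any comparison with control, and the medians were -0.18 on average, -0.39 with SHP2 miR1 and -0.05 with SHP2 miR2. At an unadjusted p below 0.05, 1 was higher and 4 lower on average, 1 higher and 11 lower with SHP2 miR1, and 0 with SHP2 miR2. Of all genes 8.31% were higher and 12.6% lower on average at that level, and 12.1% and 16.0% with SHP2 miR1. The smallest p belonged to CPSF2, a subunit of the complex that cuts histone pre-mRNA (-0.41, adjusted p = 0.156), and FIP1L1, a polyadenylation factor (-0.40, adjusted p = 0.157). SLBP, named for its role after its value was seen, had a difference of -0.10 (adjusted p = 0.713). Of 13 measured regulators of the histone clusters 0 passed on average, with 5 lower at an unadjusted p below 0.05 and a median of -0.25. With SHP2 miR1 2 fell, GON4L by 0.62 (adjusted p = 0.0333) and the kinase CDK2 by 0.62 (adjusted p = 0.0450). Of all genes 5.94% were called lower with SHP2 miR1. NPAT, also named for its role after its value was seen, had an average difference of -0.07. Of 18 histone chaperones and deposition factors 0 passed, with 1 higher and 2 lower at an unadjusted p below 0.05 and a median of -0.06. ASF1A and NAP1L4 had the smallest p among them, with differences of -0.43 (adjusted p = 0.119) and -0.39 (adjusted p = 0.154).

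Genes of the cell cycle were read in the same way, since histone transcripts depend on S phase. Of 30 DNA replication genes 0 passed on average, with 2 higher and 2 lower at an unadjusted p below 0.05 and a median of -0.06. ORC1, of the origin recognition complex, and the licensing factor CDT1 had the smallest p, each with a difference of 0.42 (adjusted p = 0.129 for ORC1 and 0.140 for CDT1). Of 30 genes of G2 and mitosis 2 fell and 0 rose on average, with a median of -0.31. Of all genes 2.67% were called lower and 1.53% higher. At an unadjusted p below 0.05, 13 of the 30 were lower on average, 19 with SHP2 miR1 and 2 with SHP2 miR2, and 0 were higher, beside 12.6%, 16.0% and 5.88% of all genes lower. In 10 of the 30 all SHP2 miR arrays lay below both controls, beside 13.6% of all genes. Of the 2 genes called lower on average, ANLN, a cytokinesis scaffold, fell by 1.03 (SE 0.18, adjusted p = 0.0151). BUB1, a spindle checkpoint kinase, fell by 0.57 (SE 0.13, adjusted p = 0.0488). With SHP2 miR1 3 mitosis genes fell, KIF23 among them by 0.71 (adjusted p = 0.0487), beside 5.94% of all genes called lower. Relative to the mean of the controls the median mitosis gene was at -0.55 and -0.33 on the SHP2 miR1 arrays, -0.21 and -0.08 on the SHP2 miR2 arrays, and -0.11 and 0.11 on the controls. The part of cell cycle phase in the histone values was not tested.

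**Figure D4:**
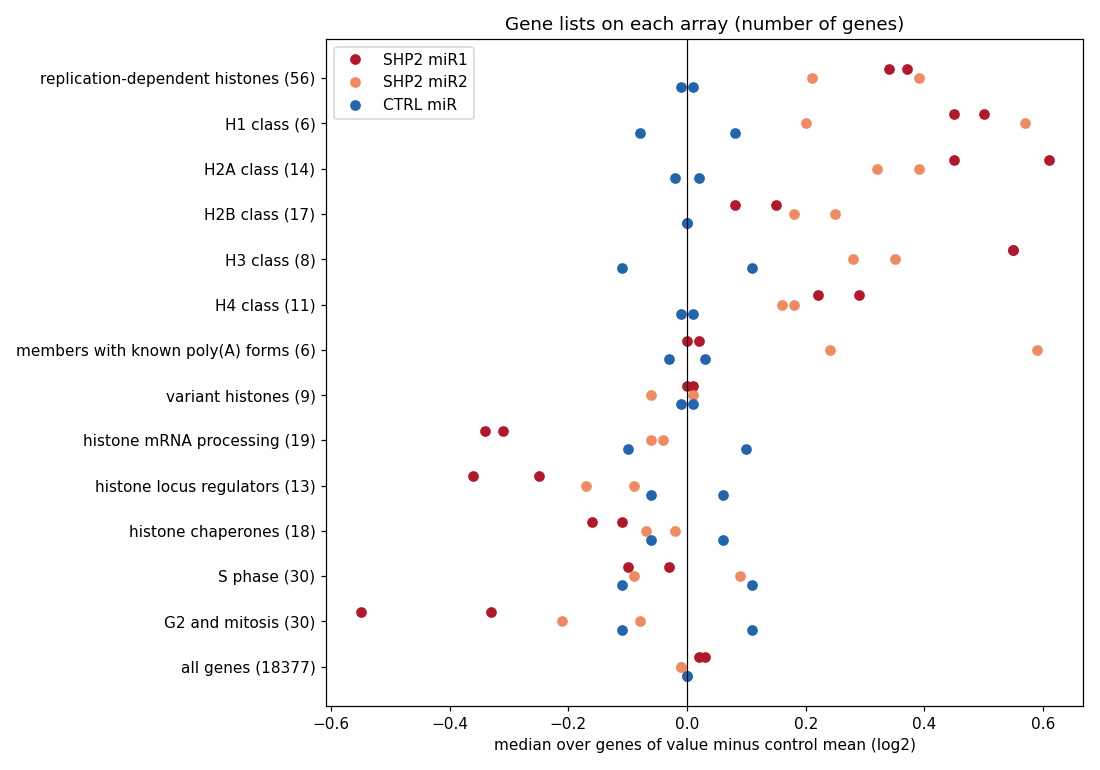
Median difference from the mean of the control arrays (log2 units) on each array (points), for each histone class and gene list, with SHP2 miR arrays drawn above the control arrays and equal medians overlapping. The members' medians lie above 0 on all 4 SHP2 miR arrays and the mitosis list's below 0.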

How the data were processed

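Total RNA of 6 samples was read on the Affymetrix HuGene-1_0-st-v1 platform (1 colour). The authors deposited 28869 probe set values per array on a log2 scale, where base 2 was inferred from the range of the values. R 2.10 and oligo 1.8 were used, per the submitters' processing notes. How background, normalization and probe summary were handled, and on which build, is not given in the sources here. Groups and replicate numbers come from the sample titles. The number of arrays limits the precision.

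A gene symbol was the sole one for 19310 probe sets, 1752 had several and 7807 none, and 19279 matched the RefSeq gene table. The probe set of highest mean was kept for each of 18377 genes. All 6 arrays entered 1 model of the 3 groups in limma 3.58.1 (lmFit, eBayes) in R 4.3.3, with 3 residual and 6.10 prior degrees of freedom, and the fit was tested on simulated data. The SHP2 miRs were set against control on average and singly, and SHP2 miR2 against SHP2 miR1. Differences are log2, with 95% intervals where given.

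The members and lists were chosen with earlier results of these data known. Given in full are members past the threshold in any contrast and the 2 of largest average difference in each class. From each list up to 3 passing genes, or the 2 of smallest p, are named. PTPN11 was always named. Lists cover variants, mRNA processing, cluster regulators, chaperones, S phase, mitosis and markers of basal, luminal, fibroblast, leukocyte and endothelial cells.

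Alternatives were quantile normalization, median centring, leaving out dim genes, averaging or testing all probe sets, a mean-variance trend, a robust prior, array weights, only the groups compared, a replicate block, leaving out each array, and, chosen after seeing the data, removal of a trend over gene span.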

Additional observations from a re-analysis of the deposited data

How the results depend on the processing

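The average comparison called 10 members higher with a median of 0.29. The count was 5 with all probe sets tested, 6 with array weights, 5 with the span trend removed, and 0 to 5 when leaving out 1 array. Leaving out dim genes called 14 members higher, beside 2.71% of the genes then tested. A mean-variance trend also called 14 higher, beside 3.00% of all genes in that fit, and 1 lower, H2AC6 (adjusted p = 0.0403). The median was 0.37 with dim genes left out and 0.17 with the span trend removed. With SHP2 miR1, 15 members were higher, a count of 5 with all probe sets tested, 3 with the span trend removed and 1 to 11 when leaving out 1 array, and the 1 lower member gave 0 to 1. Its median of 0.34 was 0.26 with arrays centred on their medians, 0.41 without dim genes and 0.20 without the span trend. With SHP2 miR2, 3 members passed without dim genes and 10 with a mean-variance trend. Its median of 0.32 was 0.24 without the span trend and 0.21 to 0.39 when leaving out 1 array. Between SHP2 miRs the median of -0.12 was -0.03 after centring, -0.01 without the span trend and -0.14 to -0.06 when leaving out 1 array. The causes of these changes were not tested. No median of the members, and no average difference of the 18 members given in full, reversed direction under the alternatives run. The direction of the other members was not checked. For the 10 members called on average, 98 of 160 average differences under the alternatives kept the call and 62 lost it, and all 160 were positive. For the 8 others given in full, 118 of 127 stayed uncalled and 9 gained a call.

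Replicate numbers were not shown to pair samples (correlations of deviations 0.07, 0.14 and 0.01). With the replicate block, 10 members were higher and 0 lower on average, with a median of 0.29, though H3C2 lost its call (adjusted p = 0.0587) and H2AC14 gained one (adjusted p = 0.0391), and 13 were higher and 1 lower with SHP2 miR1. Leaving out 1 array leaves a group with 1, which is assumed to vary like the others. With 2 arrays a group, the SE of the average difference of the members given in full ran from 0.13 to 0.25, against a median difference of 0.29. Signal over background limits the 10 dim members.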
